A study of Mus musculus with 12 samples.

Results

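Transcripts of potassium channels were compared between monocytes of mouse bone marrow (BMDM) and microglia of the brainstem (BSM). They were taken as the genes of the Aroma table, one of 2 summaries of the same exon arrays, whose only platform gene symbol begins with Kcn. Where several rows carried a symbol, the brightest on average stood for the gene. The rule used no difference between the cell types and gave 87 of 18465 genes, from 88 rows. Symbols starting with Kcn cover the pore-forming subunits and the auxiliary subunits and regulators that carry no current by themselves. Rows with several symbols or with none were not analysed here.

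Both cell types came from C57BL/6 mice aged 6 weeks, sorted from pooled mice without any genetic change or treatment. BMDM were sorted as CD11b+ CD45high CD115+ Ly6G- cells and BSM as CD11b+ CD45low CD115low Ly6G- cells, so the groups differ in tissue, in gate and in cell type at once. Each had 3 Affymetrix Mouse Exon 1.0 ST arrays, hybridized with amplified cDNA. In the labels, the replicate 1 pools are female and the other pools male. The replicate 1 pools were also used for RNA sequencing and were collected apart from the other sets, so sex and collection set cannot be told apart. A second table holds the same 6 arrays summarised in Expression Console, and it contained 73 of the 87 genes. It served as a check and added no replicates.

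Potassium channels let potassium ions leave the cell along their gradient and so hold the membrane potential negative. K2P channels carry a background leak, and inward rectifiers (Kir) pass current into the cell more readily than out of it. Calcium-activated channels open when cytosolic calcium rises, and voltage-gated (Kv) channels open on depolarization. In macrophages and microglia the potential set in this way bears on calcium entry, migration, the movement of microglial processes and release of interleukin-1 beta, for which potassium efflux is a known trigger through the NLRP3 inflammasome.

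The markers matched the labelled cell types. Of 8 microglia markers 7 were measured, and all 7 were higher in BSM, with a summed intensity of 838 to 1016 on the BMDM arrays and 24468 to 25373 on the BSM arrays. The 6 measured monocyte markers were all lower in BSM. Neutrophil markers were also lower in BSM, 7 of 7, with sums of 11001 to 12634 against 175 to 267. S100a8 (11.96), S100a9 (11.76) and Mpo (11.64) had the highest log2 means of these in BMDM. Ly6g had the lowest (4.84), and both gates excluded Ly6G+ cells. Of 6 measured T, B and NK cell markers, 3 were lower in BSM (sums of 544 to 860 against 151 to 178) and none was higher. Of 4 measured erythroid markers 3 were lower, with sums of 5187 to 7981 against 154 to 334. Of 8 endothelial and mural markers 2 were lower and none higher, and of 7 neuron markers 1 was higher and 2 were lower, with sums of 187 to 200 against 188 to 197. The part of other cell types in the potassium channel results was not tested. In sorted pools of this kind, a change in the share of cells that express a gene and a change in RNA per cell cannot be told apart.

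Among the potassium channel genes, 7 were higher in BSM by 2-fold or more, namely Kcnma1, Kcnd1, Kcnk6, Kcnj2, Kcnip3, Kcnk13 and Kcnj10. Kcnab2 and Kcne3, which encode auxiliary subunits, were lower in BSM by 2-fold or more. The differences ran from a log2 difference (BSM minus BMDM) of 3.64 for Kcnma1 to -4.10 for Kcnab2. Counted this way, 7 of 87 genes were higher and 2 lower, where 6.81% and 9.24% of all rows passed the same threshold. In the limma fit across all 21837 rows, with an adjusted p of 0.05 as the threshold, 29 of the 87 were called higher in BSM, 5 lower and 53 were not called. Of all rows, 49.6% were called, with 28% higher and 21.6% lower, and the count of 29 higher genes has to be read against that background. The median difference over the 87 genes was 0.28, beside 0.17 over all genes. The arrays of BMDM and BSM did not overlap for 52 of the 87 genes, where 60.8% of all rows had no overlap. This held for 12 of the 18 brighter genes defined below, beside 75.6% of the rows of that brightness, and for 40 of the 69 dim ones, beside 46% of dim rows.

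**Figure D1:**
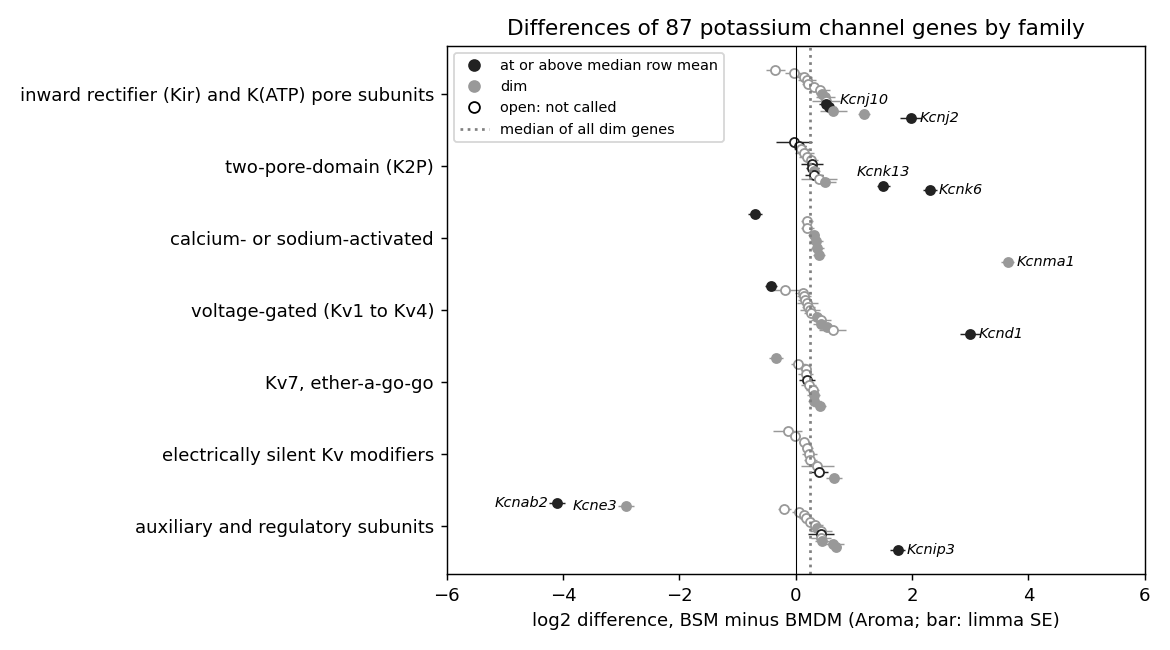
Log2 difference (BSM minus BMDM, Aroma table, x axis) of each of the 87 potassium channel genes, grouped by channel family (y axis), with the limma standard error as a bar. Dark points mark genes at or above the median row mean, grey points dim genes, filled points called genes, and the dotted line the median of all dim genes (0.25). Most genes lie close to that line, and 9 lie 1 or more away from 0.

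Brightness divided the genes. A row was called dim here when its mean over the 6 arrays was below 5.63 on the log2 scale, the median row mean of the table, and 69 of the 87 genes were dim. The other 18 are called bright. The 3 genes just above this line were Kcnj12 (mean 5.65), Kcnk4 (5.69) and Kcnh3 (5.79), and the 3 just below it were Kcnma1 (5.61), Kcna2 (5.52) and Kcnc4 (5.42). As the line applies to the mean of both cell types, 3 dim genes lay above it in 1 cell type, namely Kcnma1 and Kcnj10 in BSM and Kcne3 in BMDM. Of the bright genes 7 were called higher in BSM and 3 lower, where 28.1% of bright rows were higher and 38.6% lower. By 2-fold or more, 5 bright genes were higher and 1 was lower, where 9.98% and 16.5% of bright rows passed. Of the dim genes 22 were called higher and 2 lower, where 28% of dim rows were higher and 4.63% lower (32.6% in either direction). Their median difference was 0.25, the same as the 0.25 over all dim genes.

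Channels with a difference of 2-fold or more are described first, by role. Kcnma1 encodes the pore of the large-conductance BK channel, which opens on calcium and depolarization together. Its log2 intensity was 3.79, 3.75 and 3.81 on the BMDM arrays and 7.53, 7.47 and 7.28 on the BSM arrays. All 3 BMDM arrays were thus far below the median row and all 3 BSM arrays far above it. The difference was 3.64 (SE 0.11, 12.5-fold, adjusted p = 4.78e-08, limma), and the Expression Console table gave 3.21. The transcripts of its partners were dim in both cell types. Kcnmb1, Kcnmb2 and Kcnmb4, the measured BK beta subunits, had differences of 0.44, 0.18 and 0.43, none of them called. These partners were picked after their values had been seen. Kcnn4 encodes KCa3.1, an intermediate-conductance channel that calcium opens through calmodulin and that is known in T cells, red cells and microglia. It read 7.08, 6.97 and 6.70 in BMDM and 6.24, 6.18 and 6.22 in BSM. BSM arrays were lower with a narrow spread (SD 0.03 against 0.19 in BMDM), and the difference was -0.71 (SE 0.12, adjusted p = 0.00145, limma). The Expression Console difference was larger, -1.05.

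The remaining 6 calcium- or sodium-activated channels were dim, and of all dim rows 28% were called higher and 4.63% lower. The small-conductance channels Kcnn1 (0.31) and Kcnn3 (0.37) and the sodium-activated Kcnt1 (0.35) and Kcnt2 (0.40) were called higher, which put this family at 5 higher, 1 lower and 2 not called of 8. None of these 4 differences was called in the Expression Console table, in which Kcnt1 and Kcnt2 had no row, or after each array was centred on the median of its dim rows.

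Among the 14 K2P genes, Kcnk6 and Kcnk13 were higher in BSM by 2-fold or more. Kcnk6 encodes TWIK2, a potassium efflux channel that in mouse macrophages works together with the ATP-gated channel P2X7. Its intensity was 8.15, 8.39 and 8.29 in BMDM and 10.61, 10.43 and 10.73 in BSM, bright in both cell types. The difference was 2.31 (SE 0.12, 4.97-fold, adjusted p = 1.19e-06, limma). Expression Console had no row for it, so this value has no second summary. Kcnk13 encodes THIK-1, the channel behind the background potassium current of mouse microglia. It read 6.12, 6.00 and 6.29 in BMDM against 7.67, 7.54 and 7.71 in BSM, with a difference of 1.51 (SE 0.11, 2.84-fold, adjusted p = 1.16e-05, limma). In the Expression Console table the difference was 3.16, more than 1.5 times as large on the log2 scale, with a BMDM mean of 4.46. Kcnk12, which encodes the related THIK-2, was bright too but was not called (0.28, SE 0.11, adjusted p = 0.065, limma). Its value was 7.54, 7.28 and 7.34 in BMDM and 7.60, 7.63 and 7.77 in BSM.

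Other bright K2P genes did not pass the test. These were Kcnk15 (-0.04), Kcnk3 (0.27), Kcnk4 (0.32) and Kcnk7 (0.06). Kcnk15 had the widest spread of these, with 6.57, 5.30 and 6.34 on the BSM arrays. Kcnk7 lies over Ehbp1l1 in the annotation, a bright gene whose own difference was -1.15, and the Expression Console table gave -0.28 for Kcnk7. Kcnk2 (TREK-1), a mechanically gated channel, was dim with 4.28, 4.27 and 4.37 in BMDM and 4.47, 4.75 and 4.65 in BSM. It was called at 0.32 (adjusted p = 0.0403, limma), while Expression Console gave -0.01. Its call was lost in 12 of 16 other settings, in 1 of which the sign turned. Kcnk1, the gene of TWIK1, was called at 0.51 (adjusted p = 0.0434, limma), with BSM replicate 1 at 5.68 and the other BSM arrays at 4.99 and 5.20. Leaving out BSM replicate 1 took the call away (0.32, adjusted p = 0.089, limma). The Kcnk1 call was lost in 10 of 16 other settings, among them Expression Console (0.26) and dim-row centring (0.26).

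Of the 15 inward rectifier genes 7 were called higher in the Aroma table and none lower, with a median difference of 0.46. Only 3 of the 15 were bright, and of all dim rows 28% were called higher and 4.63% lower. The median over all dim genes was 0.25. The family median was 0.06 over the 14 with a row in Expression Console and 0.21 after dim-row centring. Of the 7 calls only those of Kcnj2 and Kcnj10 were also made in these settings, with no Expression Console row for Kcnj13. Kcnj2 encodes Kir2.1, the classic strong inward rectifier of macrophages and cultured microglia. It read 5.06, 5.60 and 5.82 in BMDM and 7.43, 7.45 and 7.54 in BSM, so the BSM arrays lay within 0.11 of each other while BMDM replicate 1 was lower than its group. The difference was 1.98 (SE 0.18, 3.95-fold, adjusted p = 4.19e-05, limma) and 1.41 in Expression Console. Kcnj10 encodes Kir4.1, best known from astrocytes and oligodendrocytes. Its values were 4.45, 4.42 and 4.58 in BMDM and 5.68, 5.73 and 5.55 in BSM, and the difference was 1.17 (SE 0.10, 2.25-fold, adjusted p = 2.99e-05, limma). Of 8 astrocyte markers 5 were higher in BSM and 1 lower, with summed intensities of 188 to 191 in BMDM and 402 to 408 in BSM. In Expression Console 2 of 7 were higher and after dim-row centring 2 of 8. Slc1a3, a glutamate transporter, rose by 3.53, from 4.15 to 7.68, and made up most of the rise in the sum. The other 7 astrocyte markers were dim. Of these the water channel Aqp4 rose by 1.26 and Aldoc was the lower one (-0.52). Gfap, at 4.83 in BMDM with a difference of 0.17, was not called, and neither was Gja1. Of 6 measured oligodendrocyte markers 3 were higher and 2 lower. The part of these cells in the Kcnj10 value was not tested.

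Kcnj9 (Kir3.3) and Kcnj12 (Kir2.2) were bright and called higher with smaller differences, 0.58 (adjusted p = 0.00478) and 0.52 (adjusted p = 0.00655) in limma. Both calls were lost in the Expression Console table (0.37 and 0.16) and after centring on dim rows (0.33 and 0.27). Kcnj11, the pore of the ATP-sensitive channel, read 5.99 in BSM replicate 1 against 5.02 and 5.32 in replicates 2 and 3, and its difference was 0.65 (adjusted p = 0.0486, limma). Without BSM replicate 1 it was 0.38 (adjusted p = 0.0923, limma). The Kcnj11 call was lost in 11 of 16 other settings, among them Expression Console (0.36) and dim-row centring (0.40). Kcnj14 (Kir2.4) had the lowest difference of the family, -0.35 (adjusted p = 0.103, limma), with 4.21 ± 0.33 (SD, n = 3) in BMDM and 3.86 ± 0.06 in BSM. It was called lower after dim-row centring (-0.60).

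In the voltage-gated group of 15 genes, Kcnd1 was the only one called higher by 2-fold or more. It encodes Kv4.1, an A-type channel that inactivates rapidly. Its intensity was 4.66, 4.76 and 5.08 in BMDM and 7.48, 8.07 and 7.93 in BSM. BMDM lay below the median row on each array and BSM above it, with a difference of 2.99 (SE 0.18, 7.97-fold, adjusted p = 2.66e-06, limma) and 2.93 in Expression Console. The other Kv4 genes, Kcnd2 (0.44) and Kcnd3 (0.20), were dim and not called. Kcnip3 encodes KChIP3, a calcium sensor that binds Kv4 channels and is also known as the transcriptional repressor DREAM. It was higher in BSM as well, at 5.35, 5.03 and 5.09 in BMDM and 6.76, 7.09 and 6.89 in BSM, by 1.76 (SE 0.13, 3.38-fold, adjusted p = 1.15e-05, limma). Its relatives Kcnip1 (0.33) and Kcnip2 (0.25) were dim and not called, and Kcnip4 was dim and called at 0.69. The Kcnip4 call was lost in Expression Console (0.35) and kept after dim-row centring (0.43). Kcnd2, Kcnd3, Kcnip1 and Kcnip2 were named as relatives after their values had been seen.

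Kcna3 encodes Kv1.3, which is known from T cells and activated microglia. It was bright in both cell types, at 7.50, 7.48 and 7.44 in BMDM and 6.96, 6.96 and 7.22 in BSM. The groups did not overlap, and the difference was -0.43 (SE 0.11, adjusted p = 0.0121, limma) in the Aroma table and -0.89 in Expression Console. When the arrays were quantile normalized again the call was lost (-0.27, adjusted p = 0.0589, limma). The other Kv1 genes were dim, and of these only Kcna4 was called (0.44, adjusted p = 0.0271, limma), with the call lost in Expression Console and after dim-row centring. Kcna10 (0.63) and Kcna5 (-0.18) marked the ends of the dim voltage-gated genes and were not called.

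Kcnab2 encodes Kv beta-2, an auxiliary subunit with an aldo-keto reductase fold that binds Kv1 channels in the cytoplasm. It fell from 9.04, 9.36 and 9.33 in BMDM to 5.27, 4.93 and 5.23 in BSM. The cell types were separated by more than 3 log2 units, and the difference was -4.10 (SE 0.14, 17.1-fold lower in BSM, adjusted p = 9.07e-08, limma) and -4.34 in Expression Console. Kcna3, the bright Kv1 gene, differed by -0.43, as given above. Kcnab2 overlaps Nphp4 in the annotation, whose own difference was 0.21 and was not called. The other beta subunits were dim, with Kcnab1 called at 0.36 and Kcnab3 not called (0.14). The Kcnab1 call was lost in Expression Console (0.08) and after dim-row centring (0.11). Kcne3 encodes MiRP2, a membrane protein with a single span that keeps KCNQ1 channels open in epithelia. It read 6.40, 6.52 and 6.49 in BMDM and 3.32, 3.48 and 3.85 in BSM, a difference of -2.92 (SE 0.14, 7.55-fold lower, adjusted p = 9.35e-07, limma) and -2.71 in Expression Console. Kcnq1 itself was dim at 4.77 and 4.81 and was not called, and neither was Kcne4 (0.05). Kcne1 (0.45) and Kcne2 (0.65) were dim and called higher, but not in Expression Console. Kcnab3, Kcnq1 and Kcne4 were named as partners or relatives after their values had been seen. All 6 measured monocyte markers and all 7 neutrophil markers were lower in BSM as well. So were 3 of 6 T, B and NK cell markers and 3 of 4 erythroid markers, with none called higher. The part of any of these cells in the Kcnab2, Kcne3, Kcnn4 and Kcna3 values was not tested.

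**Figure D2:**
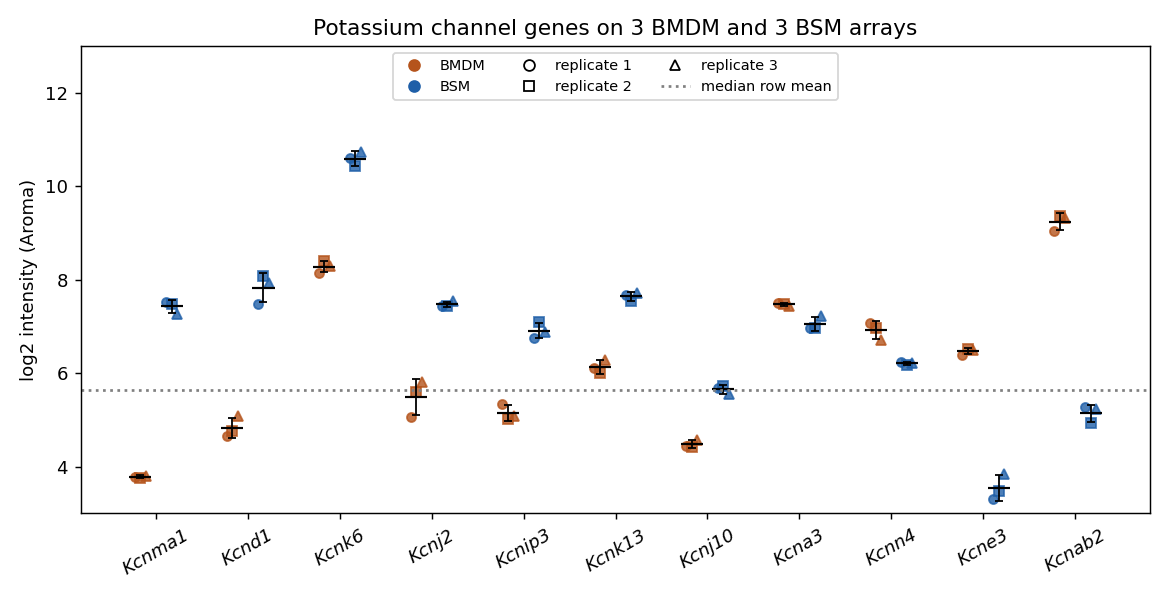
Log2 intensity in the Aroma table (y axis) of 11 potassium channel genes (x axis) on each of 3 BMDM arrays (orange) and 3 BSM arrays (blue). Bars give the mean and SD of the 3 arrays, marker shape the replicate number, and the dotted line the median row mean of 5.63. The arrays of the cell types do not overlap for any of these genes, and 7 are higher and 4 lower in BSM.

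Kcnrg, a regulator that suppresses Kv channel assembly in human cells, was bright with 7.93, 7.71 and 8.20 in BMDM and 8.28, 8.85 and 8.02 in BSM. The groups overlapped and the difference of 0.44 was not called (adjusted p = 0.128, limma). Its locus overlaps Trim13, which was called higher by 0.46, and the host transcript Dleu2, so the source of the signal cannot be assigned to Kcnrg alone.

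In the Kv7 and ether-a-go-go group of 10 genes, 9 were dim. Kcnq3, a subunit of the M-current, was the only one lower, at 5.43 ± 0.11 (SD, n = 3) in BMDM and 5.09 ± 0.13 in BSM (-0.34, adjusted p = 0.0358, limma). Expression Console gave -0.51, and the Kcnq3 call was lost in 5 of 16 other settings. Kcnh2, Kcnh4 and Kcnh7 were called higher by 0.31 to 0.42 in the Aroma table. Expression Console called neither Kcnh2 nor Kcnh7 and had no row for Kcnh4. Kcnh3 was bright, with overlapping groups and a difference of 0.20, and it overlaps Mcrs1, a gene that fell by 0.76. Of 9 electrically silent Kv modifiers, which alter Kv2 channels and form no channel by themselves, Kcng4 was called higher (0.66) and 8 were not called. Kcns3 was the bright one among these (0.39, adjusted p = 0.0662, limma). The Kcng4 call was lost in Expression Console (0.40) and kept after dim-row centring (0.41).

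The small differences of dim genes changed with the scaling of the arrays and with the summary used. Of the 22 dim genes called higher, 20 had differences below 2-fold, from 0.31 to 0.69 with a median of 0.43. Dim rows as a whole read higher on BSM arrays, with a median log2 intensity over all dim rows of 4.18 to 4.31 on the BMDM arrays and 4.45 to 4.59 on the BSM arrays. Each array was then centred on the median of its dim rows, a step chosen after seeing the data. With it, 9 of the 87 genes were called higher and 7 lower (12.6% and 27.9% of all rows). The median difference fell to 0.03, which follows from the step itself, as most of the 87 genes were dim. By Expression Console, 6 of 73 were called higher and 6 lower (8.38% and 20.5% of its rows), with a median of 0.03. The same 73 genes gave 23 higher and 5 lower in the Aroma table. All 6 genes called higher in Expression Console were called higher in Aroma too, and they were Kcnma1, Kcnd1, Kcnj2, Kcnip3, Kcnk13 and Kcnj10. Of the 5 genes lower in Aroma, all 5 were called lower in Expression Console, which added Kcnk7. The tables used here give no detection calls, so how much of a dim value is background is unknown, and folds against a dim group can be understated.

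**Figure D3:**
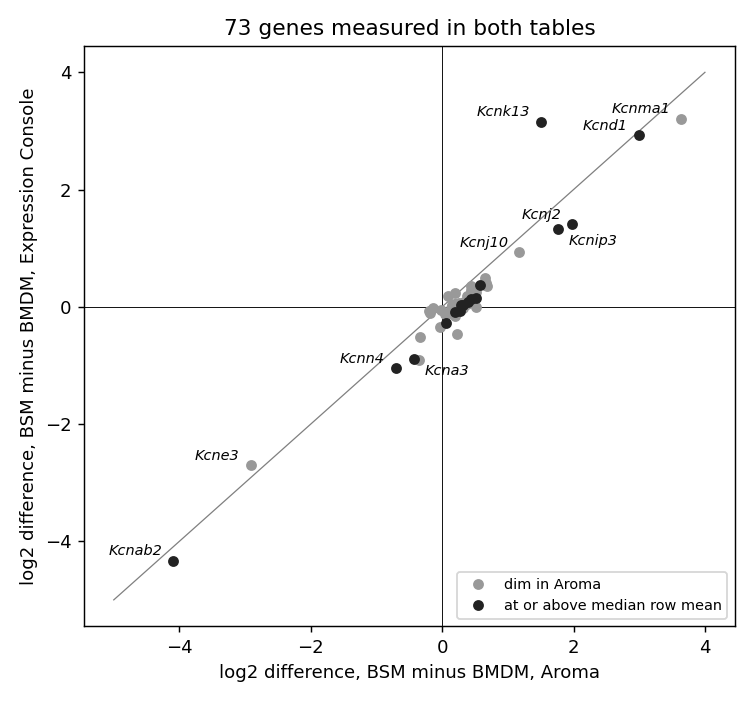
Log2 difference (BSM minus BMDM) in the Expression Console table (y axis) against that in the Aroma table (x axis) for the 73 potassium channel genes present in both, with the line of equality in grey. Points are genes, dark at or above the median row mean in Aroma and grey below it. The dim genes crowd to the right of 0 on the x axis (Aroma median 0.27 over all 73) but around 0 on the y axis (0.03), while Kcnk13 lies well above the line.

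Calls were also read across 17 other settings, which include the Expression Console table, other scalings, a term for sex and each array left out. Of the 22 named genes called in the main fit, 10 kept the same call in every setting in which they could be run. These were the 9 genes with differences of 2-fold or more and Kcnn4, 7 of them higher and 3 lower in BSM. With all arrays 29 genes were called higher, but leaving out BMDM replicate 1 left 15 and leaving out BMDM replicate 2 left 17.

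Arrays of a cell type varied as follows. The median SD over 3 arrays was 0.13 in BMDM and 0.15 in BSM, beside 0.12 and 0.15 over all genes. An SD above 0.4 was found in BSM for 9 of the 87 genes (10.3%), beside 4.96% of all genes. In BMDM it was found for 3 (3.45%), beside 3.33%. These shares were not matched for brightness, and 69 of the 87 genes were dim, beside 8829 of all 18465. The part of brightness was not tested. The arrays did not share high values evenly. BSM replicate 1 was the highest BSM array for 43 of the 69 dim genes (62.3%), as it was for 57% of all dim rows, and BMDM replicate 3 was the highest BMDM array for 37 of 69 (53.6%), beside 44.6% of all dim rows. BSM replicate 1 is labelled female and belongs to the separately collected set, and the part of either in these values was not tested.

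Promoter sequences were read for the genes that stood apart, since Kcnj2, Kcnk13 and Kcnip3 were higher in BSM together and Kcne3 was lower. RefSeq promoters (GRCm38.p6, 300 bases around a gene start) were found for 67 of the 87 genes, and Kcnk6 and Kcnd1 had none. The letters searched on both strands were GAGGAA, a core of sites bound by the myeloid factor PU.1, TGANTCA and TTGCGCAA, a C/EBP palindrome. With any base at N, TGANTCA is wider than the AP-1 site, which has C or G there. Of all 32851 promoters of this length, 28.3% held GAGGAA, 7.81% TGANTCA and 0.183% TTGCGCAA, beside 29.3%, 4.35% and 0% of the 92 promoters of potassium channel genes. Capitals mark the letters found, on either strand, in these 4 windows of 300 bases, each given 5′ to 3′ on the strand of its gene.
Kcnj2, chr11:111065914-111066213, plus strand: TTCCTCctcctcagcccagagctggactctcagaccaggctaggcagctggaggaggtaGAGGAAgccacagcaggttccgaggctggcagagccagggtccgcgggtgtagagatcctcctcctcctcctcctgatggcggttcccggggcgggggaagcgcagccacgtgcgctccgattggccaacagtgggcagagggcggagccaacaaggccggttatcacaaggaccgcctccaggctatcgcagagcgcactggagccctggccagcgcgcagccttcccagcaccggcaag
Kcnk13, chr12:99964249-99964548, plus strand: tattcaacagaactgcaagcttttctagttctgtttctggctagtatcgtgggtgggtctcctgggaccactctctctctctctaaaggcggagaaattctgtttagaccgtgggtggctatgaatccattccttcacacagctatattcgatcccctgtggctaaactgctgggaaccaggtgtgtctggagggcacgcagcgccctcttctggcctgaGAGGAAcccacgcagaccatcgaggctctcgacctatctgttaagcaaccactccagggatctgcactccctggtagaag
Kcnip3, chr2:127522045-127522344, minus strand: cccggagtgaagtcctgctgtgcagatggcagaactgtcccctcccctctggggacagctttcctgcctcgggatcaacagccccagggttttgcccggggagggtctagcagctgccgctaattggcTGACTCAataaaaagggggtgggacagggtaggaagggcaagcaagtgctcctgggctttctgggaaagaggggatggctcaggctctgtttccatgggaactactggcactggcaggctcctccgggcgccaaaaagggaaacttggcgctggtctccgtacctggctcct
Kcne3, chr7:100176420-100176719, plus strand: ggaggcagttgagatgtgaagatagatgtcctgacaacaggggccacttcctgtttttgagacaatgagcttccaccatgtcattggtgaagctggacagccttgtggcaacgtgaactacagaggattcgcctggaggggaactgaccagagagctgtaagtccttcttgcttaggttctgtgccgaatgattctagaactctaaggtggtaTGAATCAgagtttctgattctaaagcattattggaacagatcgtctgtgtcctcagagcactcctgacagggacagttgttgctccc
The Kcnj2 window held GAGGAA at 2 places, the Kcnk13 window at 1, and the most upstream windows of Kcnip3 and Kcne3 held TGANTCA at 1 place each. The Kcnip3 match read TGACTCA, an AP-1 site by its letters, and the Kcne3 match read TGAATCA, which is not. Of the other 2 windows of Kcnip3, 1 held GAGGAA and 1 none of the 3 motifs, and the other window of Kcne3 held none. The windows of Kcnma1 and Kcnj10 and all 3 of Kcnab2 held none. These matches describe the letters in each window, and they do not show that a factor binds there.

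The other genes of potassium handling were taken from 4 lists. Of 14 measured channel partners without a Kcn name, 6 were called higher in BSM and none lower. But 13 of the 14 were dim, and of all dim rows 28% were called higher and 4.63% lower. No call of a partner remained in Expression Console (8 genes, 3 of the 6 called among them) or after dim-row centring. The list also holds Hcn2, Hcn3 and Hcn4, which encode pore-forming cation channels and not partners, and Hcn3 (0.50) was one of the 6. Amigo1, which binds Kv2 channels, was the bright one (5.98 ± 0.01 and 6.46 ± 0.10, SD, n = 3; 0.48, adjusted p = 0.00403, limma). The genes for 4 extracellular or membrane partners of BK channels, Lrrc26, Lrrc38, Lrrc52 and Lrrc55, were all dim, and only Lrrc52 was called (0.53).

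Of 8 measured pump and cotransporter genes 3 were called higher and 3 lower, where 28% and 21.6% of all rows were. Slc12a2 encodes NKCC1, which carries sodium, potassium and chloride into the cell. It rose from 4.35 ± 0.19 (SD, n = 3) in BMDM to 8.67 ± 0.13 in BSM, by 4.32 (SE 0.13, 20.0-fold), a difference larger than that of any of the 87 channel genes. The potassium-chloride cotransporters Slc12a7 (0.72) and Slc12a4 (0.44) rose as well, Slc12a4 in Aroma only. Fxyd5, which encodes a modulator of the sodium-potassium pump, fell from 11.98, 12.15 and 12.11 to 8.27, 7.81 and 8.48, by 3.90 on the log2 scale (14.9-fold). The pump beta subunits Atp1b1 and Atp1b3 fell by 0.76 and 0.34. Rows of the pump alpha subunits were not analysed here.

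Of 4 measured regulators of KCa3.1, Nme2, a nucleoside diphosphate kinase that activates the channel by phosphorylating a histidine, fell by 1.31, and Pik3c2b, a lipid kinase that promotes this step, rose by 0.89. Neither call was found in Expression Console, where Nme2 was -1.07 (adjusted p = 0.0665, limma) and Pik3c2b had no row. Among 11 calcium and cation entry channels, which potassium efflux is known to balance electrically, 4 were higher and 2 lower. All 11 were bright, and of bright rows 28.1% were higher and 38.6% lower. P2rx7, which encodes P2X7, read 8.34, 8.09 and 8.12 in BMDM and 9.56, 10.02 and 9.81 in BSM, a difference of 1.61 (SE 0.14, 3.06-fold, adjusted p = 3.07e-05, limma). Trpm2 (0.96), the calcium-activated Trpm4 (0.95) and P2rx4 (0.55) rose too in the Aroma table, and the P2rx4 call was lost in Expression Console (0.31, adjusted p = 0.096, limma). The calcium sensors of the endoplasmic reticulum Stim2 and Stim1 fell by 0.88 and 0.54. Of the 10 genes with a row in Expression Console, 3 were called higher and 3 lower there, the latter being Stim1, Orai2 and Trpm7. The store-operated channel genes Orai1, Orai2 and Orai3 were not called in the Aroma table (0.35, -0.03 and -0.03), but Expression Console called Orai2 lower (-0.60, adjusted p = 0.00775, limma).

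**Figure D4:**
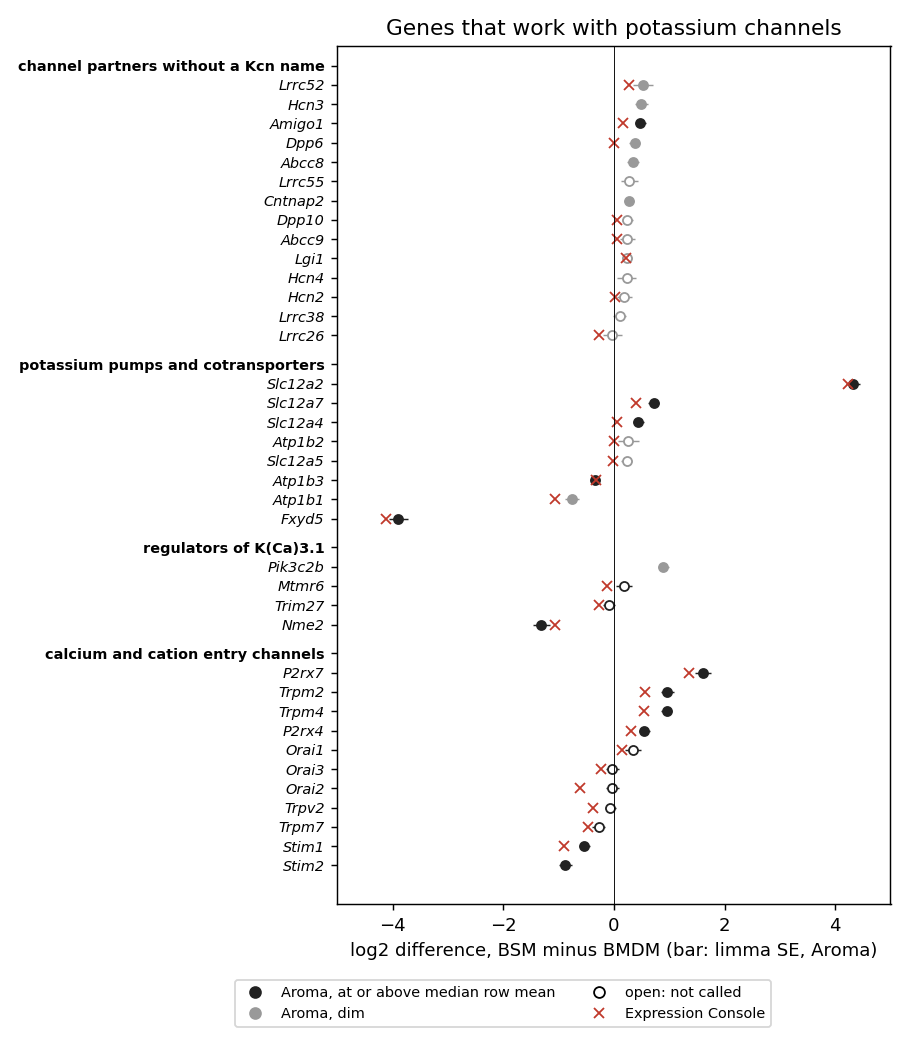
Log2 difference (BSM minus BMDM, x axis) of 37 genes of 4 lists that work with potassium channels (y axis), as circles with the limma standard error for the Aroma table and as crosses for Expression Console. Dark circles are at or above the median row mean, grey circles are dim, and open circles were not called. Slc12a2 and Fxyd5 lie farthest from 0, and 13 of the 14 channel partners lie just to its right in the Aroma table.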

How the data were processed

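Log2 values were computed from the Aroma table. Its linear intensity values were made by the authors, who corrected the background by RMA, normalized by quantiles and fitted a log-additive model of the probes. The second table was deposited by the authors as log2 values from RMA in Expression Console, and the submitters' processing notes name mm9. The median Aroma intensity was 42.8 to 45.2 on the BMDM arrays and 48.8 to 52.1 on the BSM arrays, and having 3 arrays per cell type limits the precision.

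The two-sided test was limma 3.58.1 in R 4.3.3 (lmFit, then eBayes), without covariates or filters, and p-values were adjusted by Benjamini-Hochberg across the 21837 rows. Only the limma fit was tested on simulated data, which had no array-wide shift between the cell types. Gene names came from the platform annotation, and 18821 rows had exactly 1 symbol. The 38 potassium channel genes named by rule were the bright ones, dim ones called at 2-fold or more, the 3 on either side of the median row mean, 7 known from work on microglia or macrophages (Kcna3, Kcnn4, Kcnma1, Kcnj2, Kcnk6, Kcnk13 and Kcnk2) and the highest and lowest dim gene of each family. Others were named after their values were seen. The genes, lists and alternatives were chosen with earlier results of these data known. The 12 GEO samples are 6 arrays summarised in 2 ways and were never pooled. The labels call the arrays biological replicates and each array held a pool of mice. Protein sequences were not used here.

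Alternatives were the Expression Console table, median centring, quantile normalization again, bright rows only, averaging the rows of a gene, array weights, eBayes with trend and robust settings, the methods' t-test, sex as a covariate, the replicate number as a block, leaving out each array and, added after seeing the data, centring on dim rows.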

Additional observations from a re-analysis of the deposited data

How the results depend on the processing

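The count of potassium channel genes called higher in BSM was 29 in the main fit. It was 6 in the Expression Console table, 12 with median centring, 9 with centring on dim rows, 12 with quantile normalization again, 9 among bright rows and 19 with the methods' t-test, and 15 to 28 when an array was left out. The count called lower was 5, and 3 among bright rows. The median difference of 0.28 became 0.026 in Expression Console, 0.093 with median centring, 0.031 with dim-row centring and 0.070 with quantile normalization again. Over all rows, 6120 were called higher and 4718 lower, and the count called higher was 1955 of 6734 calls in Expression Console, 3253 with median centring, 2744 with dim-row centring and 3342 when bright rows alone were fitted. Channel partners called higher, 6 in the main fit, were 0 in Expression Console and with dim-row centring, 1 with median centring, with quantile normalization again and among bright rows, and 2 to 5 when an array was left out. Regulators of KCa3.1 called higher, 1 in the main fit, were 0 in Expression Console and among bright rows and 2 with quantile normalization again, and those called lower, 1 in the main fit, were 0 in Expression Console. The sign turned for Kcnk2 (-0.013) and Kcnk7 (-0.28) in Expression Console. Expression Console and the bright rows held fewer of the genes. The 73 genes with a row in Expression Console gave 23 higher and a median of 0.27 in the Aroma table. The cause of these shifts was not tested.

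The deviations of same-numbered arrays from their cell type means correlated at 0.065, 0.002 and 0.011. For arrays with unlike numbers the correlations ran from -0.123 to 0.110. With 3 arrays per cell type, these values cannot decide whether the replicate numbers pair the arrays. With the replicate number as a block, 26 potassium channel genes were called higher and 5 lower, and 3 channel partners were called higher. The number of arrays and the background in dim rows limit what small differences can show.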
